A study of Mus musculus with 2 samples.

Results

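Mir126a is the microRNA gene inside Egfl7, and it is described here in the facial prominences of mouse embryos, the swellings that fuse to form the face. It was taken by its gene symbol as 1 of 1973 microRNA loci in the deposited count tables. Small RNA was sequenced from embryos of strain B6NCrl at embryonic day 11.5. The series has 1 group, healthy embryos of mixed sex with no treatment and no altered genotype named, and 2 biological replicates: a pool of 109 embryos (replicate 1) and a pool of 88 (replicate 2). Sense counts over all loci came to 1941745 in replicate 1 and 2319881 in replicate 2. Levels are given as CPM, counts scaled to a sense total of 1000000 per library, on which a single count of replicate 1 weighed 0.515 CPM and one of replicate 2 weighed 0.431 CPM. With 1 group there is no condition to test, and all values below describe these pools.

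MicroRNAs are cut from hairpins in longer transcripts, and each mature strand guides a silencing complex to messenger RNAs that pair with its seed, bases 2 to 8. Mir126a is transcribed with Egfl7, a gene for a secreted protein of the vessel wall that endothelial cells express. Its 3p strand is known to repress Spred1 and Pik3r2, inhibitors of signalling from vascular endothelial growth factor, and mice without it develop leaky vessels and haemorrhage. Blood progenitors and megakaryocytes also express it. Egfl7 messenger RNA was not measured by these libraries, so the endothelial label rests on the known expression of the gene and could not be checked against other endothelial genes here.

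The hairpin lies on chromosome 2 at 26591357 to 26591429, plus strand (GRCm38, 73 bases), inside Egfl7 (26580014 to 26593120, plus strand). Of 19 annotated Egfl7 transcripts 9 span it. It is intronic in 8 of these, in the intron between exons 7 and 8 of the models with 10 exons, and in the other 1, a retained-intron transcript, it is exonic. That intron runs over 600 bases, with 293 bases before the hairpin and 234 after it, and the spanning models with 9 exons share it. In the spanning models with 3 exons the intron runs over 1054 bases, with 688 bases after the hairpin. A second gene, Mir126b, is annotated on the minus strand of the same place (26591363 to 26591420), and its 58-base hairpin is the reverse complement of a stretch of the Mir126a hairpin. The nearest microRNA gene that does not overlap lies 121238 bases away.

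**Figure D1:**
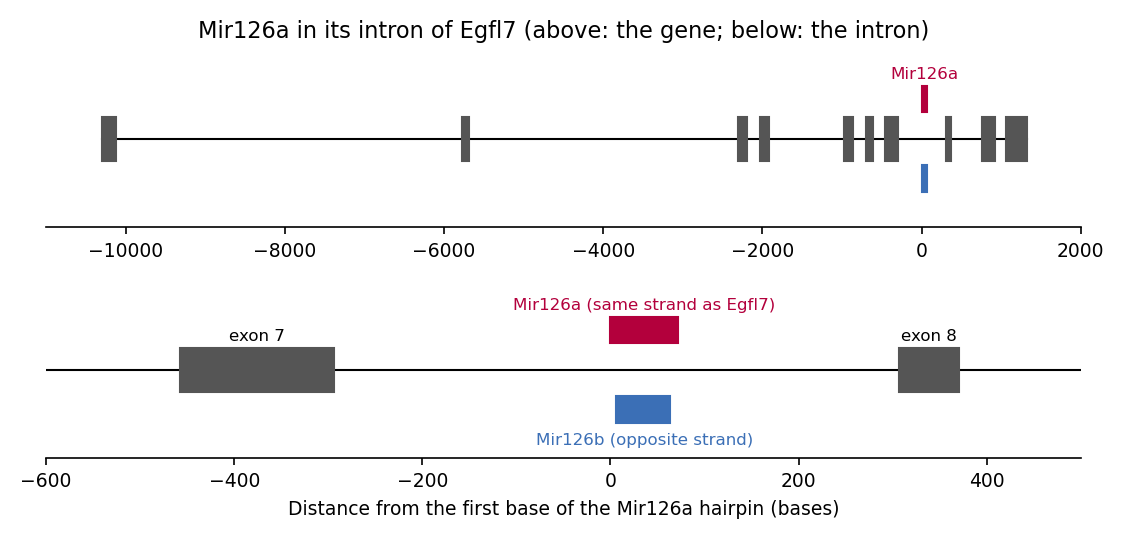
Exons of a 10-exon Egfl7 transcript (grey) with the hairpins of Mir126a (red, same strand) and Mir126b (blue, opposite strand); the x axis is the distance in bases from the first base of the Mir126a hairpin. The upper panel shows the gene and the lower panel the 600-base intron, with the hairpin 293 bases after exon 7.

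The hairpin is shown with the mature 3p sequence in capitals, and the mature sequences with their seeds in capitals, because the counts that follow depend on how far the strands of this place can be told apart. All are from RefSeq on GRCm38.p6 and run 5′ to 3′; the first 2 are on the plus strand of chromosome 2 and the last 2 on the minus strand.
Mir126a hairpin: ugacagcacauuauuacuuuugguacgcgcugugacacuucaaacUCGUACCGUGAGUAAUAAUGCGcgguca
miR-126a-3p: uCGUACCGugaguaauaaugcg
miR-126b-3p: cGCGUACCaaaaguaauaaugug
miR-126b-5p: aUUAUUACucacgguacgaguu

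The 3p strand fills bases 46 to 67 of the hairpin. Of the 1738 mature mouse sequences in the RefSeq table, only miR-126a-3p itself carries its seed, and the seed holds 2 CG pairs, which 19 of those sequences (1.09%) match or exceed. miR-126b-5p lies opposite miR-126a-3p over 19 bases, and the 3p strands of both genes share a run of 10 bases. A fold predicted with RNAfold had 27 base pairs, 19 of the 22 bases of the 3p strand paired, and a minimum free energy of -31.2 kcal/mol. Per base that is -0.43 kcal/mol, against a median of -0.41 over the 1005 mouse hairpins of the table.

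How evenly different microRNAs entered the libraries was not tested, so comparisons between loci here and below are of counts, not of molecules. By that measure Mir126a was among the most abundant microRNA loci of the facial prominences. It received 75799 sense counts in replicate 1, or 39037 CPM (exact 95% interval 38765 to 39310), and 93780 in replicate 2, or 40424 CPM (40171 to 40679). These intervals cover counting error only, and each count may come from either strand of the hairpin, 3p or 5p, since the tables count per gene. About 1 in 25.6 sense counts of replicate 1 and 1 in 24.7 of replicate 2 therefore came from this 1 gene, and its mean level was 39731 ± 981 CPM (SD, n = 2). In bulk tissue, fewer cells of a type and less RNA per cell cannot be told apart, so this level gives no share of endothelial cells. Most loci were far lower: over the 350 other loci with at least 10 counts in both libraries, the median of the log2 ratio of Mir126a to the locus was 7.71.

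Reads placed at several positions, 22.7% of the reads of replicate 1 and 20.5% of replicate 2, are outside the counts. Loci that share sequence with other hairpins may therefore stand too low in the order below. By sense counts Mir126a held place 4 of all loci in each pool. Its neighbours in that order were compared by the log2 ratio of Mir126a to the locus in each library, and a difference was taken to exceed the spread when it was larger, in both libraries, than the difference between the pools for either locus. Mir99a, the next above, stood at 47453 CPM in replicate 1 and 49138 in replicate 2, and the ratio of Mir126a to it was -0.28 in both, beyond the spread. Mir17, of the growth-associated Mir17 cluster, and Mir335, in the imprinted gene Mest, also stood above Mir126a beyond the spread, at ratios of -0.76 ± 0.05 and -1.13 ± 0.12 (SD, n = 2).

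The next 3 loci below Mir126a did not differ from it beyond the spread, although Mir126a was the higher in each library. The ratio of Mir126a to Mir130a, which is known from endothelial growth in human cells, was 0.17 in replicate 1 and 0.10 in replicate 2. For Mir99b it was 0.24 and 0.11, and for Mir322, a cell-cycle locus of the Mir15 seed family, 0.17 and 0.41. From the fourth locus below on, the gap exceeded the spread: the mesenchymal Mir214 had a ratio of 0.41 ± 0.07, and Mir23b, the fifth, of 0.55 ± 0.02, although Mir23b shares at least 20 bases in a row with another hairpin and its level is uncertain. By distance of log2 CPM over the 2 libraries, the 5 loci nearest to Mir126a were Mir130a (0.20), Mir99b (0.26), Mir99a (0.40), Mir322 (0.44) and Mir214 (0.58).

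**Figure D2:**
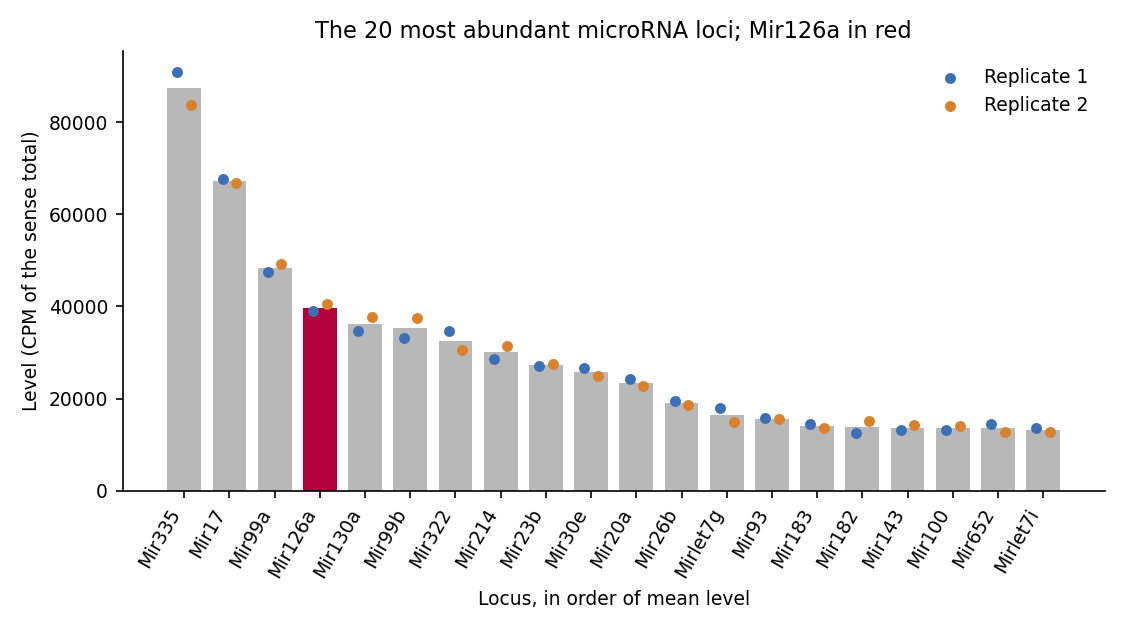
Levels of the 20 most abundant loci in CPM of the sense total; bars are means of the 2 pools, and points are replicate 1 (blue) and replicate 2 (orange). Mir126a (red) stands in place 4 at 39037 and 40424 CPM, below Mir99a in both pools and close to the points of Mir130a, Mir99b and Mir322.

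Its level came from a single hairpin with its own place in the genome. Of the 20 most abundant loci 7 were alone, with no other microRNA gene within 10 kb on their strand, and among all 1468 loci of that kind Mir126a ranked 2, after Mir335 and before Mir130a, Mir26b and Mirlet7g. Among the 686 loci in introns of protein-coding genes on the same strand it also ranked 2. The first 5 of these were Mir335, Mir126a in Egfl7, Mir99b in Spaca6, Mir23b in 2010111I01Rik and Mir30e in Nfyc, with the last at 25858 ± 1212 CPM. The Mir126a hairpin shared no run of 20 bases with a hairpin at another position, whereas 929 of the 1973 loci did. This was not particular to Mir126a, since of the 20 most abundant loci only Mir23b shared such a run. The mature 3p sequence occurred in 2 annotated transcripts, Mir126a and the retained-intron transcript of Egfl7 at the same place. Reads placed at several positions were outside the counts and made up 22.7% of the reads of replicate 1 and 20.5% of replicate 2.

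Few reads came from the other strand, where Mir126b is annotated. At Mir126a the opposite strand held 9 of 75808 stranded counts in replicate 1, a share of 0.0119% (exact 95% interval 0.00543 to 0.0225), and 6 of 93786 in replicate 2, a share of 0.00640% (0.00235 to 0.0139). Mir126b has no row of its own in the tables, so any read of miR-126b-3p or miR-126b-5p placed here would be among these counts. All of them together came to 4.64 CPM in replicate 1 and 2.59 in replicate 2. The limit that a count of 0 would allow was 3 counts, or 1.55 and 1.29 CPM. That limit concerns a locus without counts, not reads given the wrong strand at a locus with many sense counts. Whether the opposite-strand counts came from Mir126b was not tested. Among the 24 loci with a mean level of at least 10000 CPM, 6 had any opposite-strand count. Mir335, at more than 2-fold the sense level of Mir126a, had 4 and 7. Of the 262 loci with at least 100 stranded counts in both libraries, 229 had none, 24 had a higher share than Mir126a, and 12 had more than 1%.

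The levels of Mir126a in both pools lay close together. The log2 ratio of replicate 2 over replicate 1 was 0.05, or 1.04-fold, with a counting interval of 0.04 to 0.06. This was below the median absolute log2 ratio of 0.14 over the 257 loci that averaged 100 counts or more, among which 50 had a smaller ratio. It was also below the median of 0.10 over the 24 loci of at least 10000 CPM, whose absolute ratios ran from 0.02 to 0.27. Of all 257 loci 1.95% differed by over 2-fold, and Mir126a was not one of them. The ratio depended on the total used for scaling: per total of all reads, the lines that name no gene included, Mir126a was lower in replicate 2, at a log2 ratio of -0.20.

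**Figure D3:**
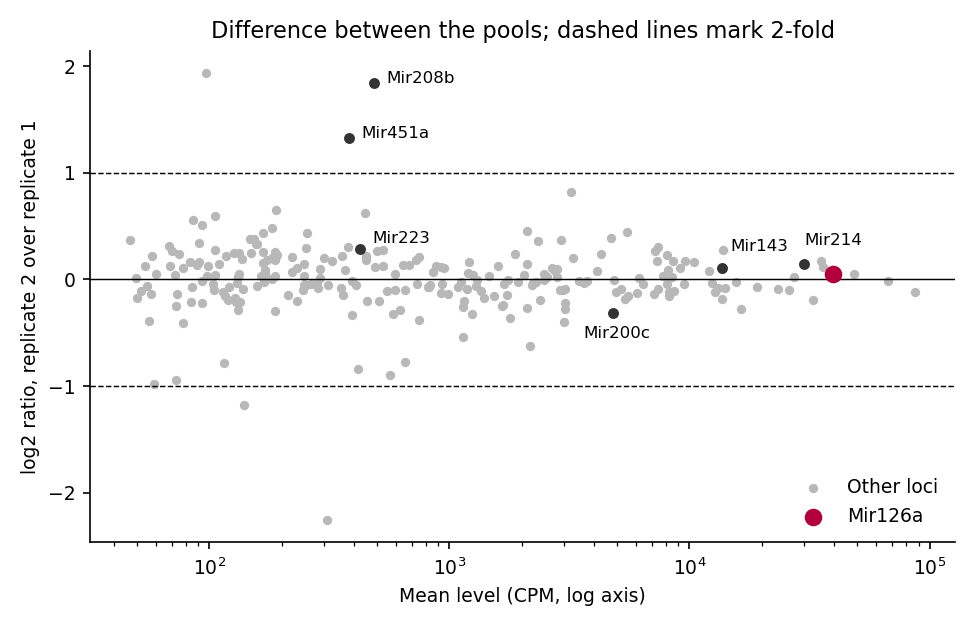
The log2 ratio of replicate 2 over replicate 1 (y axis) against the mean level in CPM (x axis, log scale) for the 257 loci that averaged 100 counts or more; dashed lines mark 2-fold. Mir126a (red) sits at 0.05. Of the 5 loci past 2-fold, the erythroid Mir451a (1.33) and the cardiac Mir208b (1.84) lie above the upper line, and some of the rest lie below the lower line.

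Mir126a was then set beside other loci tied to vessels. Of the 19 genes on that list 18 are in the tables, Mir126b being the one that is not, and most are also expressed outside endothelium. Mir126a was higher than 15 of the 17 others beyond the spread, the exceptions being Mir130a and Mir322. Over all 350 detected loci Mir126a was higher beyond the spread than 98.3%, so the count says nothing particular about vessel loci. Together the 17 others summed to 113779 CPM in replicate 1 and 113845 in replicate 2. Mir126a alone came to 0.343 and 0.355 of those sums. Mir92-1, Mir23a, Mir27a, Mir24-2 and Mir218-1 share sequence with other hairpins, so the sums may be too low and these shares too high.

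The vessel loci covered a wide range of levels. Mir126a exceeded Mir100, of the Mir99 family, by 2.95-fold in replicate 1 and 2.86-fold in replicate 2, and Mir296, a locus of growth-factor-treated human endothelium, by 4.85-fold and 4.46-fold. Mir92-1, the member of the Mir17 cluster known to restrain vessel growth, and Mir23a were 5.67-fold and 4.05-fold lower than Mir126a in replicate 1, but both share sequence with other hairpins. The Hox-cluster loci Mir10a and Mir10b were further below, and the gap differed between the pools: Mir126a exceeded Mir10a by 14.9-fold in replicate 1 and 23.7-fold in replicate 2, and Mir10b by 28.9-fold and 43.4-fold. Mir503, the neighbour of Mir322, stood at 1203 ± 96.3 CPM, and the hypoxia-induced Mir210 at 548 ± 29.0 CPM.

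The pair Mir221 and Mir222, which act on the Kit receptor in human endothelial cells, was low. Mir126a stood 154-fold above Mir221 in replicate 1 and 171-fold in replicate 2, and 298-fold and 299-fold above Mir222. The gap to Mir222 differed less between the pools than that to Mir221. Mir155, best known from immune cells, had 183 ± 18.1 CPM, and Mir132, linked to vessel growth in tumours, 90.6 ± 7.2 CPM. Mir27a and Mir24-2, neighbours of Mir23a, had 168 ± 12.8 and 149 ± 18.2 CPM, and Mir218-1, hosted by the guidance gene Slit2, had 11.4 ± 0.89 CPM; these 3 share sequence with other hairpins and may be incomplete.

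Against loci of the cells that surround or fill vessels, the gap was smallest for Mir143, but its list did not share that small gap as a whole. Mir126a exceeded Mir143, a locus of smooth muscle and pericytes, by 2.96-fold in replicate 1 and 2.85-fold in replicate 2. The only other locus of that list, its partner Mir145a, was 180-fold and 138-fold below Mir126a. The erythroid Mir451a was 179-fold below Mir126a in replicate 1 and 73.8-fold below in replicate 2, with Mir451a itself at 218 and 547 CPM. The second erythroid locus, Mir144, did not share that shift: Mir126a exceeded it by 842-fold and 885-fold. Mir486, also of the erythroid list, had few counts, 31 in replicate 1 and 49 in replicate 2, or 16.0 and 21.1 CPM. By sense counts the closest locus of the leukocyte list was Mir223, a myeloid locus, 102-fold and 86.8-fold below Mir126a. Mir142 is not among the loci matched here, and Mir142b, on the other strand of the same place, had 0 sense counts; the 1812 and 2099 counts on its opposite strand, or 933 CPM in replicate 1 and 905 in replicate 2, are outside the leukocyte sum. Since blood progenitors and megakaryocytes also express Mir126a, what part of its level they gave was not tested. The summed level was 280 CPM in replicate 1 and 614 in replicate 2 for 3 erythroid loci, and 448 and 526 for 4 leukocyte loci, against 39037 and 40424 CPM for Mir126a. A locus of the leukocyte list shares sequence with another hairpin, so the leukocyte sum may be incomplete.

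Against the tissues of the face, Mir126a alone outweighed the summed epithelial list. It had 39037 and 40424 CPM, and the 7 epithelial loci together 33088 CPM in replicate 1 and 29540 in replicate 2, a ratio of 1.18 and 1.37. Mir429, of the Mir200 family that holds epithelial identity, and Mir205 led the list, with Mir429 higher in replicate 1 (8563 against 8166 CPM) and Mir205 in replicate 2 (7933 against 7915 CPM). To the mesenchymal sum of 8 loci Mir126a stood at a ratio of 0.569 in replicate 1 and 0.567 in replicate 2. That ratio was nearly the same in both pools, and Mir126a exceeded the leading member Mir214 by 1.37-fold and 1.28-fold. Mir23b made up 27019 and 27398 CPM of the mesenchymal sum. Mir23b, Mir27b and the Mir199 loci share sequence with other hairpins, so that sum may be incomplete. Mir23a and Mir27a, the paralogs of Mir23b and Mir27b, were placed on the vascular list. The ratio of Mir126a to the mesenchymal sum therefore depends on how the lists were drawn. The neural list, led by Mir137, summed to 1582 and 1296 CPM over 8 loci. Mir137 alone made up 1384 and 1109 CPM of those sums. All other neural loci share sequence with other hairpins and may be incomplete, and Mir9-1 is not among the loci matched here. The neural sum may therefore be too low. The striated muscle list summed to 628 CPM in replicate 1 and 1494 in replicate 2 over 8 loci, led in the mean by the cardiac myosin locus Mir208b at 212 and 758 CPM, with the skeletal muscle locus Mir206 higher in replicate 1 at 350 CPM and lower in replicate 2 at 537 CPM. The ratio of Mir126a to the muscle sum was 62.1 and 27.0. Mir1a-1, Mir133a-1, Mir133a-2 and Mir133b of that list share sequence with other hairpins and may be incomplete. Mir1a-2 is not among the loci matched here. The muscle sum may therefore be too low. The muscle and erythroid sums were higher in replicate 2 by log2 ratios of 1.25 and 1.13, next to 0.05 for Mir126a. Most of the erythroid sum was Mir451a, at 218 and 547 CPM. Over all lists Mir126a was higher beyond the spread than 47 of 49 detected loci and lower than 0. It was likewise higher than 98.3% of all 350 detected loci, so the count says nothing particular about the lists. The median log2 ratio was 6.52 over the listed loci, against 7.71 over all detected loci.

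**Figure D4:**
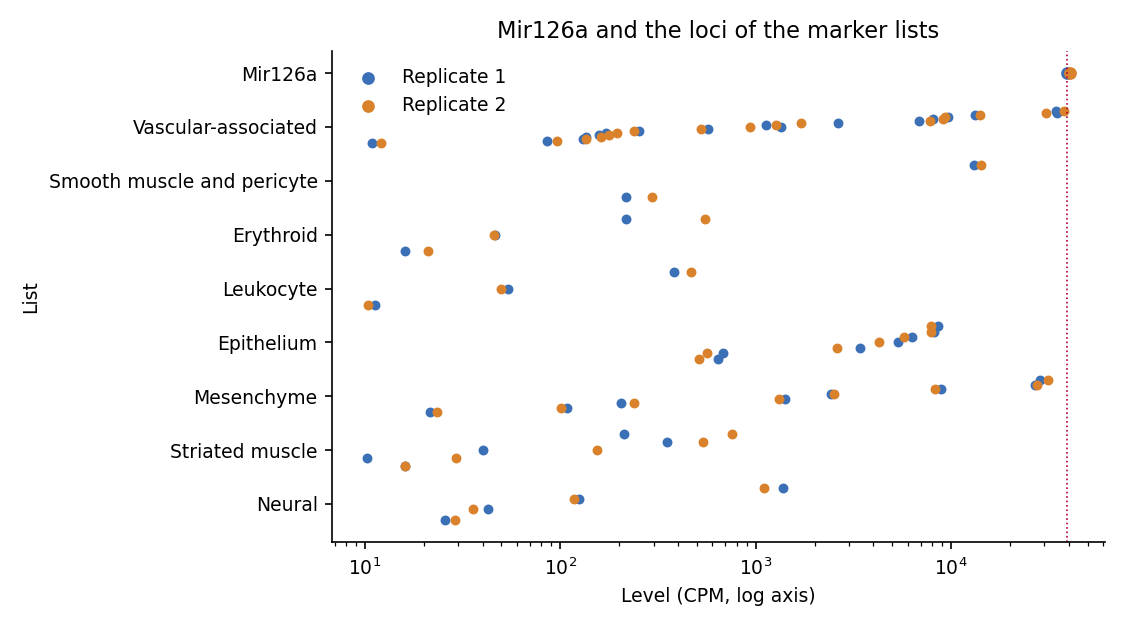
Levels in CPM (log axis) of Mir126a, top row and dotted line, and of each listed locus with at least 10 counts in both libraries, by list; points are replicate 1 (blue) and replicate 2 (orange). Of the listed loci, Mir130a and Mir322 in the vascular row and Mir214 and Mir23b in the mesenchyme row come closest to Mir126a, while erythroid and leukocyte loci reach at most 547 CPM by sense counts, which leave out the counts opposite Mir142b.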

How the data were processed

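Libraries of small RNA (under 30 bases, per the labels) came from total RNA of 2 pools. The values the authors deposited are unnormalized counts for each microRNA gene, on mm10 with GENCODE M4 per the text beside each table; the aligner and counter are not given in the sources used here. The tables hold counts irrespective of strand, sense and opposite. Sense counts were used, scaled to the sense gene total; the 4 lines of reads assigned to no gene, 59.2% of the reads of replicate 1 and 65.8% of replicate 2, stayed outside it. Symbols, positions and hairpins came from GENCODE M21 on the same assembly, where 1894 of 1973 identifiers matched with versions ignored; the other 79 held 4 counts. A locus was detected with at least 10 counts in both libraries. Intervals are exact (Clopper-Pearson) and cover counting error only, since no molecular identifiers are named. The labels give both pools 1 donor entry and number them as biological replicates. The calculation of ratios was tested on simulated libraries. Alternatives were scaling by edgeR 4.0.16 and DESeq2 1.42.0 factors under R 4.3.3, other totals, other count minimums and each library alone. Python 3.11.15, scipy 1.17.1 and RNAfold 2.7.2 were used.

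The gene, the lists (vascular-associated, smooth muscle and pericyte, erythroid, leukocyte, epithelium, mesenchyme, striated muscle, neural) and the rules were chosen with earlier results of these data known. The rule for naming loci took Mir126a, loci within 10 kb, 5 neighbours on each side in rank (3 exist above), the 5 nearest levels, every detected vascular locus, the leading locus of each other list with Mir451a, Mir144, Mir142 and Mir223, and the first 5 loci in introns. Mir145a, Mir26b, Mirlet7g, Mir142b, Mir205, Mir206 and Mir486 were named after their values were seen. So were loci of the mesenchyme, striated muscle and neural lists named only for shared sequence or for being unmatched.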

Additional observations from a re-analysis of the deposited data

How the results depend on the processing

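Mir126a stayed in place 4 in each of 9 alternatives for its rank. Scaling multiplies all loci of a library by 1 factor, so it could not change a place that was 4 in each pool. No alternative assigned to loci the reads placed at several positions. The count of 3 loci within the spread of Mir126a and of 47 listed loci below it was the same in each of 6. Its mean level of 39731 CPM was 38487 CPM with counts irrespective of strand, 38483 with both strands in the total, 43529 without Mir335 in the total and 14883 per total of all reads, which follows from the size of each total. With edgeR and DESeq2 factors it moved by less than the SD, and with each library alone it ran from 39037 to 40424 CPM. The log2 ratio between pools, 0.05, was -0.20 per total of all reads and stayed within its counting interval in the other 5 alternatives. The number of loci past 2-fold between pools, 5 of 257, was 90 of 563 with a minimum mean count of 1, 20 of 363 with 10 and 3 of 170 with 500, and 5 with either set of factors. The opposite-strand share ran from 0.00640% to 0.0119% with each library alone. Comparisons that need the difference between pools cannot be had from 1 library, and no value for Mir126b as a locus could be set beside the opposite-strand counts, since the tables used here have no row for it. No paired analysis was possible because there is 1 group. Depth bounds a locus without counts to 1.55 CPM (replicate 1) or 1.29 CPM (replicate 2), and having 2 pools limits every statement on spread.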
